A study of Mus musculus with 22 samples.

Results

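The aminoacyl-tRNA synthetases, the enzymes that attach each amino acid to its transfer RNAs (tRNAs), were followed through 22 RNA-seq libraries of primary neural stem cells from the adult mouse hippocampus. The members were chosen by gene symbol: 36 genes of the 24411 in each deposited table, of which 20 encode enzymes of the cytosol and 16, with symbols that end in 2, enzymes of mitochondria. All 36 genes had enough reads to be tested in both arms of the study. The study concerns O-GlcNAcylation, the attachment of N-acetylglucosamine to nuclear and cytosolic proteins by O-GlcNAc transferase (OGT). In the knockdown arm, cells carried for 3 days a lentivirus, at 10 viral particles per cell, that encoded a short hairpin RNA (shRNA) against Ogt (shOgt, n = 5) or against luciferase (shLuc, n = 6). In the inhibitor arm, cells received 12.5 µM OSMI-1, an OGT inhibitor (n = 5), or an equal volume of the solvent DMSO (vehicle, n = 6) for 24 h. All groups were adherent cultures in growth medium with EGF and bFGF. The labels give 1 dose and no hairpin sequence, strain or age. They do not say whether the libraries of a group came from separate cultures or animals. The p-values thus cover the variation among these libraries only, and part or all of it may be technical.

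As background, a synthetase typically recognises 1 amino acid and its tRNAs, and the enzymes fall into classes I and II by the fold of the active site. Mitochondria use a set of their own, encoded in the nucleus, except that Kars and Gars each encode both the cytosolic and the mitochondrial enzyme, and mitochondrial glutaminyl-tRNA is made by an amidotransferase. Many cytosolic synthetase genes are known targets of ATF4, a transcription factor of the amino acid response, which binds composite sites named C/EBP-ATF response elements. The motif searched for these sites was TGATGNAA on both strands (TTNCATCA when read on the other strand), where N is any base.

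The sites are shown because they were found in cytosolic but in no mitochondrial members. The choice of members did not use the motif, but the choice to show the sites followed from this result. Promoter windows of 250 bases before to 50 bases after the gene start were matched for 27 of the 36 members in a RefSeq table of the mouse build GRCm38.p6. The motif lay in a promoter of 5 of 13 cytosolic genes and 0 of 14 mitochondrial genes. Counted per promoter, 3.97% of the 32851 in the table held it, so 0 of 14 is near the background. A match is a description of these letters and not evidence of binding. Counted in bases from the first base of the RefSeq gene, along the gene's strand, the motif in the windows shown began at 9 in Aars, -30 in Gars, 7 in Iars, -15 in Tars and 3 in Yars. Each line holds 30 bases around a match, 5′ to 3′ on the strand of the gene, with the motif in capitals.
Aars at chr8:111033840-111033869 (+ strand): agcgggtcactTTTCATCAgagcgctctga
Gars at chr6:55037960-55037989 (+ strand): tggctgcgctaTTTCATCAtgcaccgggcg
Iars at chr13:49682126-49682155 (+ strand): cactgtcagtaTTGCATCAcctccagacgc
Tars at chr15:11399655-11399684 (- strand): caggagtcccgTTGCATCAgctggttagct
Yars at chr4:129189895-129189924 (+ strand): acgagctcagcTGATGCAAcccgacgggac

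Knockdown libraries held 7.22 to 13.2 M reads and inhibitor libraries 4.52 to 12.8 M reads, and Rn45s, the ribosomal RNA precursor, took 0.921 to 1.25% and 4.81 to 14.2% of them. Ogt, the target of the hairpin, went from 836 ± 89.8 to 424 ± 63.9 normalized read counts after knockdown (control to treated, SD) and from 455 ± 37.6 to 599.9 ± 42.5 with OSMI-1, which is directed at the protein and not the RNA. On principal components, shLuc 1, shLuc 3, shOgt 3, vehicle 1 and OSMI-1 5 stood apart from their groups, so counts are also given without these libraries.

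Markers of the labelled cell type were present: of 8 neural stem cell markers 7 passed the filter on low counts in each arm (Hes5 did not), of which 3 fell and 1 rose after knockdown and 4 fell with OSMI-1. None of the 8 microglia markers or the 6 vessel and fibroblast markers passed it. The microglia markers summed to 5.60 to 15.7 normalized counts in shLuc and 7.89 to 18.7 in shOgt libraries, with Cx3cr1 and C1qa at 0. Of 6 neuron markers 4 were tested, of which 2 rose and 1 fell after knockdown (sums of 3270 to 4037 in shLuc and 3011 to 3442 in shOgt) and 3 fell and 1 rose with OSMI-1 (1783 to 2296 and 2128 to 2991). Of 4 astrocyte markers 0 of 3 tested were called after knockdown, and both tested rose with OSMI-1 (sums of 1369 to 1621 in vehicle and 1773 to 2055 with OSMI-1). Of 5 oligodendrocyte markers 0 were tested after knockdown, with Mog at 0 (sums of 4.47 to 13.6 in shLuc and 6.24 to 16.8 in shOgt), and 2 with OSMI-1, of which Mbp fell (sums of 21.2 to 40.2 in vehicle and 5.73 to 33.7 with OSMI-1). Among all tested genes 16.4% fell and 15.4% rose after knockdown, and 13.2% fell and 11.6% rose with OSMI-1. The part of these cell types in the synthetase results was not tested. In such bulk samples fewer cells of a type and less RNA per cell cannot be told apart.

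Per kilobase of transcript, the cytosolic genes stood above the mitochondrial ones. In shLuc libraries the cytosolic median was 762 normalized counts per kb (range 262 to 2124), and the mitochondrial median 107 (27.8 to 428). The highest levels were those of Kars, the lysyl enzyme (2124 ± 84.6 per kb), Gars, the glycyl enzyme (2046 ± 105), and Nars, the asparaginyl enzyme (2003 ± 267), whose spreads overlapped. Mars, the methionyl enzyme, followed at 1740.3 ± 111 per kb, and Yars, the tyrosyl enzyme, at 1252 ± 119.9. Qars, the glutaminyl enzyme, was the lowest of the cytosolic genes at 262 ± 30.4 per kb and the only one under a mitochondrial gene. Those above it were Lars2 (428 ± 48.8 per kb), Rars2 (385 ± 36.5) and Tars2 (370.4 ± 34.2). At the bottom stood Wars2 (27.8 ± 4.91 per kb), Mars2 (27.9 ± 3.13) and Vars2 (31.8 ± 5.01), which did not differ beyond their spreads. The length used was that of 1 transcript per gene, and for Mars2 it was 11294 bases, the longest among the members. Before division the Mars2 count (316 ± 35.3) was above those of Vars2 (141 ± 22.2) and Wars2 (122 ± 21.7). Other lengths were not tried.

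In vehicle libraries the medians were 339 normalized counts per kb for the cytosolic and 51.4 for the mitochondrial genes. Rars2 (176 ± 22.9 per kb) stood above Cars (164 ± 4.75), Iars (157 ± 18.7) and Qars (124 ± 13.0). The spreads of Rars2, Cars and Iars overlapped. Lars2, the mitochondrial leucyl enzyme, ranked 20 of 36 in shLuc and 1 of 36 in vehicle, at 874 ± 186 per kb, above Kars (722 ± 35.9) and Gars (702 ± 49), although its spread reached theirs. Its normalized count ran from 2138 to 4036 with a median of 3616 in the 6 vehicle libraries. The lowest of these was vehicle 6, which also had the lowest Rn45s share (4.81%), and the highest was vehicle 2, which had the highest Rn45s share (14.2%). Among the OSMI-1 libraries number 1 had both the lowest Lars2 count (2505) and the lowest Rn45s share (6.69%). The upper end differed there. The highest count, in OSMI-1 6 (3593), went with a share of 6.80%, and the highest share, in OSMI-1 2 (10.5%), with a count of 2991. The part of ribosomal RNA in the Lars2 level was not tested. The 2 tables were normalized separately, so levels across them are set side by side only.

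**Figure D1:**
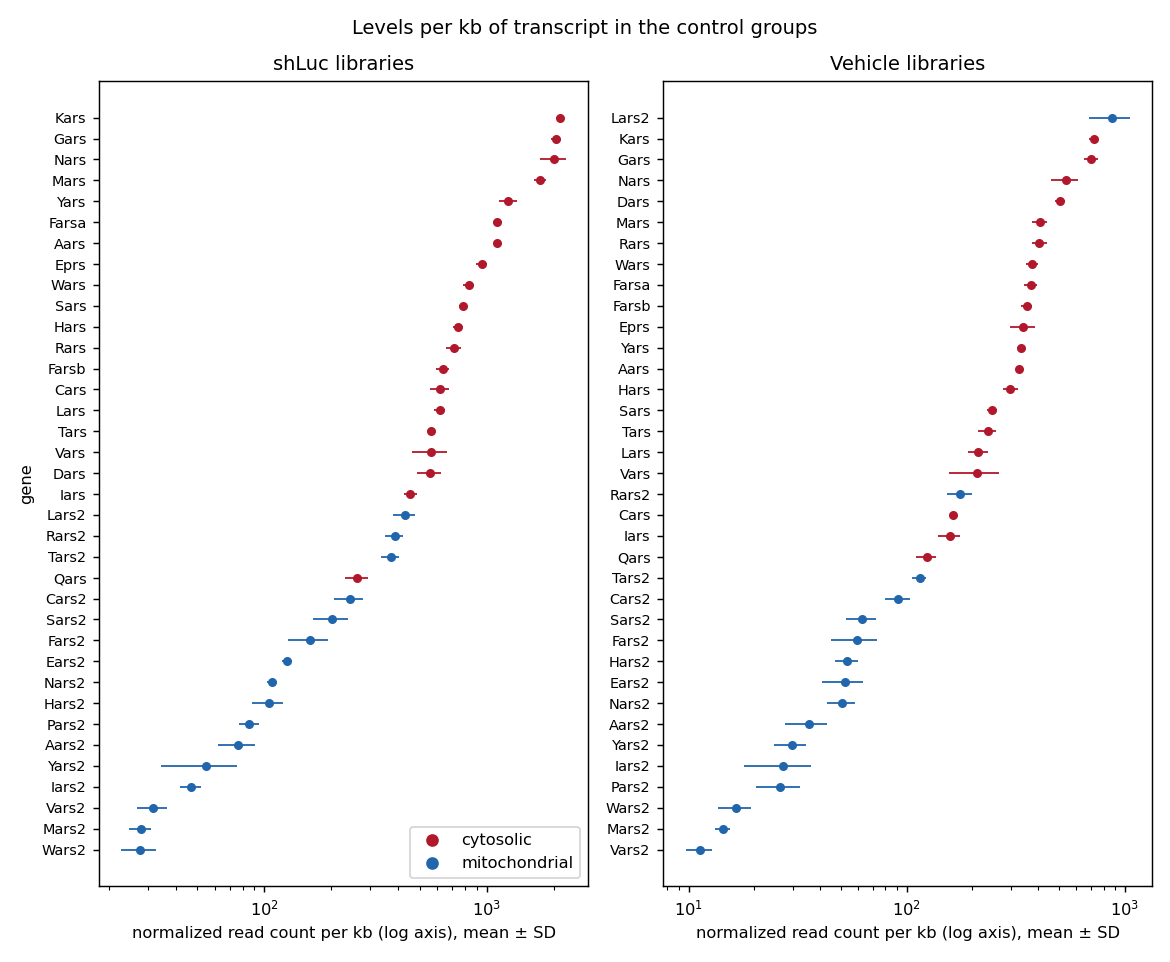
Mean normalized read count per kb of transcript (log axis, bars are SD) of the 36 genes in the 6 shLuc libraries (left) and the 6 vehicle libraries (right), cytosolic genes in red and mitochondrial genes in blue, each panel in its own order. In shLuc cytosolic genes fill the upper ranks, with Qars lowest among them (262 per kb). Lars2 moves from rank 20 in shLuc to rank 1 in vehicle, where Rars2 also stands above Cars, Iars and Qars.

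The first comparison asks how these genes responded to the Ogt hairpin. After knockdown 16 of the 20 cytosolic genes fell and 0 rose, at a limma adjusted p under 0.05. Of all 12136 tested genes 31.8% were called, 16.4% as lower. Their log2 fold changes on the log2(normalized count + 1) scale had a median of -0.37 (range -0.83 to 0.16), beside a median of 0.01 over all tested genes, and 19 of 20 were negative. In 14 of the 20 each shOgt library lay below each shLuc library, which held for 9.96% of all tested genes. Among the 2851 tested genes whose shLuc mean lay in the range of the cytosolic members (734 to 6397), 29.4% fell, with a median of -0.07. Without the 3 libraries that stood apart the count was again 16.

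Lars encodes the leucyl-tRNA synthetase, which is also known as a leucine sensor for mTORC1. Its normalized count in the 6 shLuc libraries ran from 2322 to 2666 with a median of 2379, and the 5 shOgt libraries had 1412, 1703, 1621, 1670.0 and 1567. Every shOgt library lay below the lowest shLuc library. The log2 fold change was -0.62 ± 0.07 (SE; adjusted p = 1.69e-06), the smallest p among the members.

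Mars, which charges both the initiator and the elongator methionine tRNA, ran from 4810.1 to 5682 with a median of 5062 in shLuc. The shOgt libraries had 3104, 3768, 3739, 3741 and 3151. The groups did not overlap, and shOgt 1 and 6 were the lowest (log2 fold change -0.56 ± 0.07, adjusted p = 5.84e-06).

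Yars encodes the tyrosyl enzyme, and its promoter holds the motif shown above (TGATGCAA). It ran from 3237 to 4261 with a median of 3629 in shLuc and had 2548, 2405, 2727, 2403 and 2207 in the shOgt libraries, again without overlap. The log2 fold change was -0.56 ± 0.07, with an adjusted p of 1.1e-05. Cars, the cysteinyl enzyme, ran from 1783 to 2249.9 with a median of 1932 in shLuc and had 1316, 1286, 1335, 1538 and 1099.7 in shOgt. The highest shOgt library, number 5, stayed below the lowest shLuc library, and the log2 fold change was -0.60 ± 0.09 (adjusted p = 3.51e-05).

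The other 12 cytosolic genes that fell did so by less on the log2 scale, with 1 exception. Vars, the valyl enzyme, had the lowest fold change of all members and also the largest SE of the cytosolic group: 2318 ± 414 to 1300.4 ± 226 normalized counts, a log2 fold change of -0.83 ± 0.13 (adjusted p = 4.49e-05). Eprs, a fused enzyme that charges both glutamate and proline tRNAs, went from 4649.5 ± 249.8 to 3424 ± 280.4. Aars, the alanyl enzyme and the member with the highest count before division by length, went from 6397 ± 164 to 4876 ± 573. Gars went from 4869 ± 251 to 3635 ± 319.

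The asparaginyl gene Nars went from 5499 ± 732 to 4092 ± 209, and its shLuc libraries were far apart (4844 to 6872). Iars, the isoleucyl enzyme, went from 2010.0 ± 134 to 1554 ± 91.8. Farsa and Farsb encode the 2 subunits of the phenylalanyl enzyme, and both fell. Farsa went from 2037 ± 96.2 to 1593 ± 195 (log2 fold change -0.36 ± 0.08), and Farsb from 1289.6 ± 90.4 to 1054 ± 30.7 (-0.29 ± 0.07). Kars went from 4649 ± 185 to 3709 ± 77.5, with a log2 fold change of -0.33 ± 0.05.

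Tars, the threonyl enzyme, went from 2248 ± 55.4 to 1869 ± 169.5 without overlap. For the last pair the groups overlapped. Wars, the tryptophanyl enzyme, went from 2349 ± 135 to 1959 ± 134 (log2 fold change -0.26 ± 0.07, adjusted p = 0.00594). Sars, the seryl enzyme, went from 2783 ± 116 to 2486 ± 111, and its call was the least secure of the 16: its adjusted p of 0.0479 became 0.0721 to 0.110 without any 1 of 8 libraries, namely 4 of shLuc (1, 2, 4 and 5) and 4 of shOgt (1, 2, 5 and 6).

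The 4 cytosolic genes that were not called had intervals that still allow a modest change, and their shLuc means are set against their shOgt means. The arginyl gene Rars had 1497 ± 111 against 1412 ± 148 normalized counts (95% interval of the log2 fold change -0.26 to 0.09). Dars, the aspartyl enzyme, had 1206 ± 147 against 1167 ± 239.8 (-0.31 to 0.19), and the histidyl gene Hars 1479 ± 79.9 against 1445 ± 112 (-0.19 to 0.12). Qars was the only cytosolic gene with a positive value, 734 ± 85.1 against 820.4 ± 112 (-0.07 to 0.38).

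**Figure D2:**
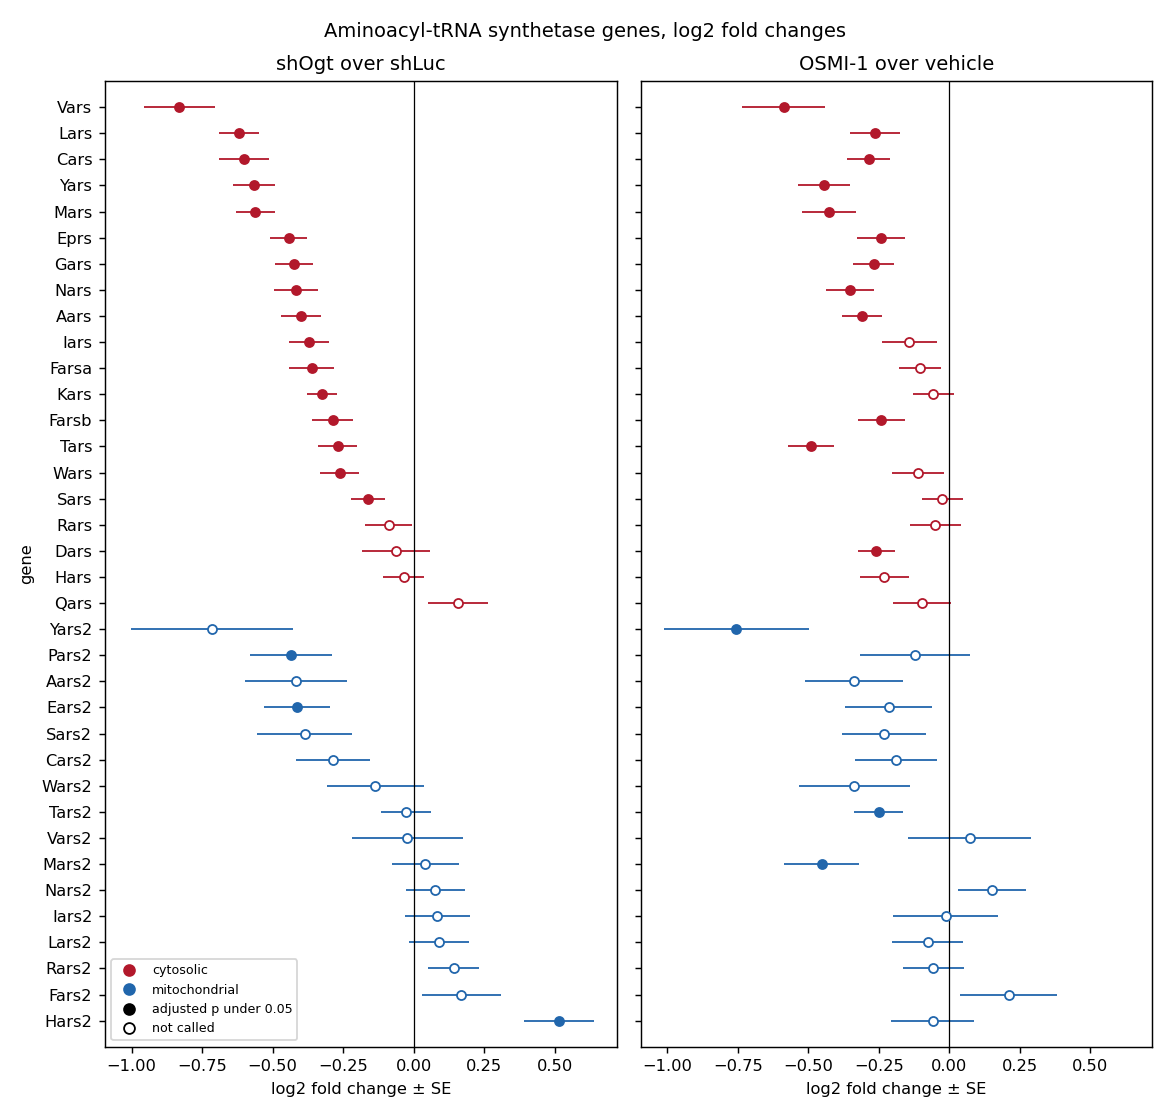
Log2 fold change (bars are SE) of each member for shOgt over shLuc (left) and OSMI-1 over vehicle (right), ordered by the knockdown value within the cytosolic (red) and mitochondrial (blue) genes; filled circles have an adjusted p under 0.05. The red circles lie left of 0 in both panels except Qars in the left panel, and the blue circles lie on both sides of 0.

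The mitochondrial genes showed no common direction after knockdown. Of the 16, Ears2 and Pars2 fell, Hars2 rose and 13 were not called. Of all tested genes 16.4% fell and 15.4% rose, and of the 7400 whose shLuc mean lay in the range of the mitochondrial members (86.5 to 1666) 18.7% fell and 16.2% rose, so these counts are near or below the background. Their median log2 fold change was -0.03, and 9 of 16 were negative. Their median SE, 0.13, was larger than that of the cytosolic genes, 0.07, so changes of the size seen among the cytosolic genes were harder to detect here. Without the 3 libraries that stood apart 4 fell and 1 rose: Aars2, Cars2 and Sars2 were then called and Pars2 was not (adjusted p = 0.140).

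Hars2, the mitochondrial histidyl enzyme, was the single member that rose in either arm. Its normalized count ran from 261 to 407 with a median of 368 in shLuc, and the shOgt libraries had 583, 497, 471, 427 and 517. Each shOgt library lay above each shLuc library (log2 fold change 0.51 ± 0.12, adjusted p = 0.00327), an order that 8.83% of all tested genes showed. Hars2 and Hars, its cytosolic counterpart, lie head to head on opposite strands, and their annotated spans overlap, with starts 197 bases apart. Hars was not called in the same libraries (-0.04 against 0.51 on the log2 scale). Whether reads from the overlap were assigned to the right gene was not tested.

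Ears2, the mitochondrial glutamyl enzyme, ran from 243 to 281 with a median of 259 in shLuc and had 167, 214, 219, 196 and 182 in shOgt. The groups did not overlap, with shOgt 1 lowest (log2 fold change -0.41 ± 0.12, adjusted p = 0.0109). Pars2, the mitochondrial prolyl enzyme, ran from 226 to 293 with a median of 262 in shLuc and had 194, 277, 175, 160.1 and 175 in shOgt. Here 4 shOgt libraries lay below all shLuc libraries and shOgt 2 lay among them (log2 fold change -0.43 ± 0.14, adjusted p = 0.0266). Without shLuc 4, or without 1 of the shOgt libraries 1, 3, 5 and 6, Pars2 was not called, at adjusted p from 0.050 to 0.0754.

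Among the 13 that were not called, 4 had negative values near the size of the cytosolic changes but wide spreads (shLuc against shOgt). Yars2, the mitochondrial tyrosyl enzyme, had 86.5 ± 32.6 against 50.4 ± 14.1 normalized counts (log2 fold change -0.72 ± 0.29, adjusted p = 0.0656), and edgeR gave an adjusted p of 0.0414 (limma without shLuc 2, 0.00818). DESeq2 and the authors' deposited table also called Yars2 after knockdown. Aars2 had 257 ± 48.5 against 196 ± 58.9, Sars2 376 ± 67.1 against 292 ± 74.8 and Cars2 462 ± 68.6 against 380.0 ± 62.4, with adjusted p from 0.085 to 0.105. These are the mitochondrial alanyl, seryl and cysteinyl enzymes. Aars2 passed without shOgt 1 or shLuc 3 (adjusted p = 0.0183 and 0.0435), and Sars2 without shOgt 3 (0.0356).

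The remaining 9 lay between -0.14 and 0.17 on the log2 scale. Lars2, the highest of the mitochondrial genes, had 1666 ± 189.9 against 1784 ± 306 normalized counts, and Tars2, the threonyl enzyme, 1196 ± 110.5 against 1175 ± 133. The arginyl gene Rars2 had 720.1 ± 68.1 against 793 ± 60.9, and the asparaginyl gene Nars2 410.2 ± 22.8 against 435 ± 54.6. Fars2, a single-chain phenylalanyl enzyme, had 342 ± 69.8 against 380.1 ± 51.1. The methionyl gene Mars2 had 316 ± 35.3 against 325 ± 38.2, and the isoleucyl gene Iars2 257 ± 28.7 against 271 ± 18.2. The 2 lowest of this set were Vars2, the valyl enzyme, with 141 ± 22.2 against 142 ± 39.7, and Wars2, the tryptophanyl enzyme, with 122 ± 21.7 against 111 ± 17.9.

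**Figure D3:**
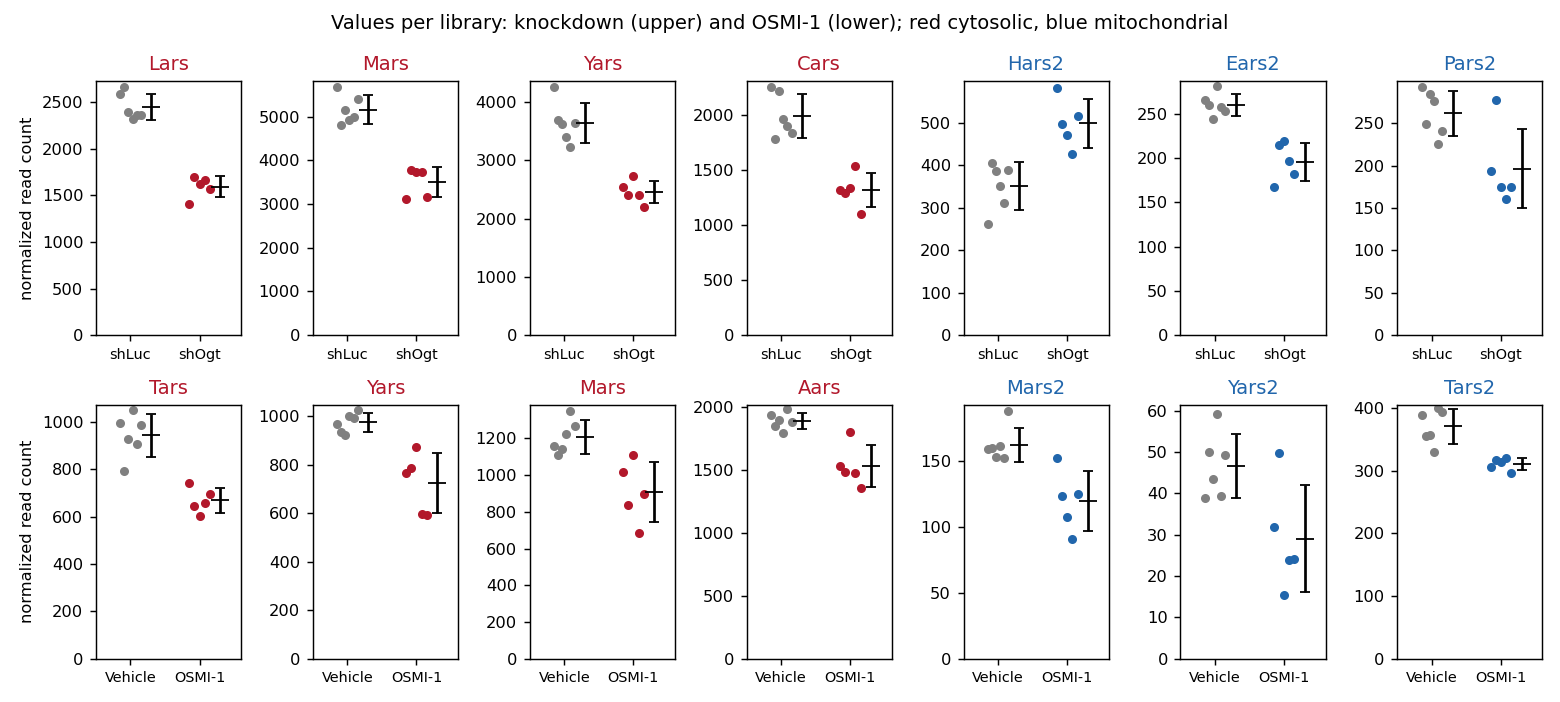
Normalized read count (linear axis from 0) in each library for the 4 cytosolic (red titles) and 3 mitochondrial (blue titles) genes with the smallest adjusted p in the knockdown arm (upper row) and the inhibitor arm (lower row); black marks are mean ± SD of 6 control and 5 treated libraries. In the upper row the shOgt points of Lars (1412 to 1703) lie below the shLuc points (2322 to 2666) and those of Hars2 above them; in the lower row the Mars, Aars and Yars2 groups overlap.

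The second comparison asks how the same genes responded to 24 h of OSMI-1. Again the cytosolic genes moved downwards: 12 of 20 fell and 0 rose. Of all 11349 tested genes 24.8% were called, 13.2% as lower. All 20 log2 fold changes were negative, with a median of -0.25 beside 0.00 over all tested genes. In 5 of them (Tars, Yars, Nars, Dars and Cars) each OSMI-1 library lay below each vehicle library, which held for 7.71% of all tested genes. The opposite order was seen in 0 of the 20, beside 6.27% of all tested genes. Among the 2855 tested genes whose vehicle mean lay in the range of the cytosolic members (347 to 1891), 18.8% fell, with a median of 0.00. Without vehicle 1 and OSMI-1 5, the libraries that stood apart, 9 fell.

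Tars, with the motif in its promoter (TTGCATCA in the window shown), had the smallest p. Its normalized count ran from 790.4 to 1049.7 with a median of 956 in the 6 vehicle libraries, and the OSMI-1 libraries had 743, 643, 604, 659 and 696. The groups did not overlap (log2 fold change -0.49 ± 0.08, adjusted p = 9.12e-05). Yars ran from 921 to 1025 with a median of 979.8 in vehicle and had 767, 788, 871, 595 and 592 with OSMI-1. All OSMI-1 libraries were lower, and numbers 5 and 6 were the lowest by a wide gap (log2 fold change -0.45 ± 0.09, adjusted p = 0.000933).

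Mars ran from 1107 to 1349 with a median of 1189 in vehicle and had 1015, 836, 1108, 685 and 897 with OSMI-1. OSMI-1 4 lay level with the lowest vehicle library and the other 4 lay below it (log2 fold change -0.43 ± 0.10, adjusted p = 0.00214). Aars, whose promoter holds the motif, ran from 1796 to 1989 with a median of 1888 in vehicle and had 1537, 1482, 1807, 1479.6 and 1356 with OSMI-1. OSMI-1 4 alone entered the vehicle range (log2 fold change -0.31 ± 0.07, adjusted p = 0.00219).

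Of the other 8 that fell, Vars again had the lowest fold change and a wide spread, 872 ± 221 against 574 ± 121 normalized counts (-0.59 ± 0.15 on the log2 scale, adjusted p = 0.00488). Nars went from 1470.2 ± 205 to 1145 ± 72.4, Gars from 1672 ± 117 to 1389 ± 124, and Cars from 527 ± 15.3 to 432 ± 20.2. Dars, which was not called after knockdown, went from 1100.2 ± 58.3 to 919 ± 33.2 here without overlap (-0.26 ± 0.07, adjusted p = 0.00603).

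Lars, Farsb and Eprs were the least secure of the 12. Lars went from 848 ± 90.7 to 706 ± 72.2 (adjusted p = 0.0301), and its p lay between 0.0516 and 0.0940 without vehicle 1, 5 or 6 or OSMI-1 2, 5 or 6. Farsb went from 722 ± 43.1 to 613 ± 66 (adjusted p = 0.0347; 0.0571 to 0.116 without vehicle 1, 2, 4 or 5 or OSMI-1 1, 4 or 6). Eprs went from 1681 ± 215 to 1416 ± 137 (adjusted p = 0.0401; 0.0578 to 0.108 without vehicle 1, 3, 5 or 6 or OSMI-1 2, 4 or 6). These were also the 3 that were not called without the libraries that stood apart.

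The 8 cytosolic genes that were not called had small negative values (vehicle against OSMI-1). Hars was nearest to the threshold, at 595 ± 46.7 to 508 ± 56.9 normalized counts (-0.23 ± 0.09, adjusted p = 0.056), and it passed without vehicle 2, OSMI-1 1 or OSMI-1 4 (0.0252 to 0.0394). Iars had 696 ± 82.8 against 632 ± 84.8 normalized counts, Wars 1068 ± 65.6 against 999 ± 169 and Farsa 677 ± 46.5 against 629.9 ± 26.4. Qars had 347 ± 36.4 against 326 ± 41.4, and Kars 1580.0 ± 78.6 against 1524 ± 159. Nearest to 0 were Rars with 857 ± 67.5 against 833 ± 122 and Sars with 877 ± 47.2 against 863 ± 67.1 (95% interval of the log2 fold change -0.18 to 0.13).

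Of the 16 mitochondrial genes Mars2, Yars2 and Tars2 fell with OSMI-1, 0 rose and 13 were not called. Of all tested genes 13.2% fell and 11.6% rose, and of the 8822 whose vehicle mean lay in the range of the mitochondrial members (46.7 to 3404) 15.03% fell and 13.1% rose, so 3 of 16 is near the background. The median log2 fold change was -0.16, and 13 of 16 were negative. Mars2, the mitochondrial methionyl enzyme, ran from 153 to 188 with a median of 159.7 in vehicle and had 152, 124, 108, 90.7 and 125 with OSMI-1. The OSMI-1 library with the highest value, number 1, lay just under the lowest vehicle library (log2 fold change -0.45 ± 0.13, adjusted p = 0.0155), and without OSMI-1 5 the adjusted p was 0.0526.

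Tars2 ran from 329 to 399.7 with a median of 372 in vehicle and had 306, 316, 314, 319.8 and 297 with OSMI-1. The OSMI-1 values were tightly grouped under the vehicle range (log2 fold change -0.25 ± 0.09, adjusted p = 0.0381). Yars2, at a low level, ran from 38.8 to 59.3 with a median of 46.4 in vehicle and had 31.9, 49.7, 15.5, 23.9 and 24.1 with OSMI-1. OSMI-1 2 lay among the vehicle libraries and the other 4 below them (log2 fold change -0.76 ± 0.26, adjusted p = 0.0342). Neither call held throughout when single libraries were left out. That of Tars2 was lost without vehicle 1, 5 or 6 or OSMI-1 1, 2, 4 or 6 (0.0532 to 0.0872), and that of Yars2 without vehicle 2, 4 or 6 or OSMI-1 4, 5 or 6 (0.0590 to 0.107). The Yars2 call was also lost with edgeR (0.0515), with DESeq2, in the authors' deposited table, with no filter on low counts and with the replicate block (0.0587), and the Tars2 call with the block (0.0847). Without both libraries that stood apart, 0 of the 16 were called.

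The other 13 mitochondrial genes gave these pairs of means, vehicle first. Lars2 had 3404 ± 723 against 3182 ± 439 normalized counts, Rars2 329 ± 42.8 against 317 ± 42.4 and Nars2 191 ± 28 against 212 ± 26.7. Hars2, which had risen after knockdown, had 178 ± 20.9 against 174 ± 47.6 (-0.06 ± 0.15 on the log2 scale, adjusted p = 0.812). Cars2 had 174 ± 22.9 against 155 ± 37.9, Iars2 148 ± 50 against 140.3 ± 11.4 and Fars2 125 ± 29.7 against 144 ± 27.3. Aars2 had 119 ± 26.1 against 94.4 ± 22.6, Sars2 117 ± 18.2 against 99.3 ± 16 and Ears2 107 ± 22.7 against 90.3 ± 5.96. The 3 lowest were Pars2 with 80.4 ± 18.4 against 73.2 ± 16, Wars2 with 72.7 ± 12.6 against 58.6 ± 17.9 and Vars2 with 49.8 ± 6.93 against 54.8 ± 21.4. Of these, Fars2, Nars2 and Vars2 had positive values, from 0.07 to 0.21 on the log2 scale.

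Summed over genes, the cytosolic enzymes took a smaller share of the library in both treated groups. The 20 genes held 0.572% of all reads on average in shLuc and 0.454% in shOgt, and 0.372% in vehicle and 0.315% with OSMI-1. Their summed normalized count went from 59249 to 45265 after knockdown, whereas that of the 16 mitochondrial genes was 7223 and 7227. With OSMI-1 the sums were 20605 and 17340 for the cytosolic and 5675 and 5254 for the mitochondrial genes. In this arm Lars2 alone made up more, on average, than all other mitochondrial genes together. Without Lars2 the mitochondrial sums were 5557 ± 214 (SD) in shLuc and 5443 ± 327 in shOgt. In vehicle and OSMI-1 libraries they were 2271 ± 110 and 2072 ± 108.

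A mean of the log2 values, in which each gene counts alike, pointed the same way after knockdown, but not in every library. In shLuc the cytosolic mean was 11.30 ± 0.03 (SD, n = 6) and in shOgt 10.96 ± 0.07 (SD, n = 5), and the groups did not overlap. The mitochondrial means were 8.38 ± 0.08 and 8.27 ± 0.12, and these groups overlapped. In each library the mitochondrial mean was also taken from the cytosolic mean. This difference was 2.93 ± 0.09 in shLuc (2.77 to 3.05) and 2.69 ± 0.14 in shOgt (2.55 to 2.92). The groups overlapped, with shOgt 5 at the upper end (2.92). Against the shLuc mean, shOgt 5 lay at -0.29 for the cytosolic and -0.28 for the mitochondrial genes. With OSMI-1 the cytosolic mean went from 9.88 ± 0.05 to 9.63 ± 0.11 and the mitochondrial mean from 7.29 ± 0.08 to 7.13 ± 0.08, and the shifts of the 2 kinds were closer to each other than after knockdown (treated minus control, -0.25 and -0.17 on the log2 scale against -0.35 and -0.11). The difference per library was 2.59 ± 0.09 in vehicle and 2.50 ± 0.08 with OSMI-1, and these groups overlapped. These means and differences are a description of the chosen genes and were given no test.

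**Figure D4:**
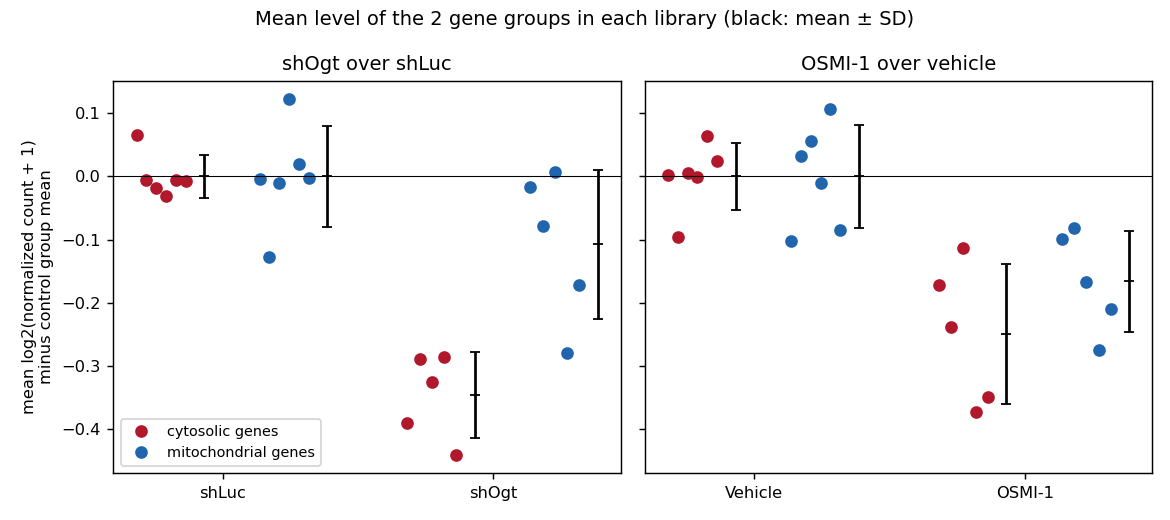
Mean log2(normalized count + 1) over the 20 cytosolic (red) and the 16 mitochondrial (blue) genes in each library, as the difference from the control group's mean; black marks are mean ± SD. The 5 shOgt cytosolic means lie between -0.44 and -0.29, the shOgt mitochondrial means between -0.28 and 0.01, and with OSMI-1 both kinds lie below 0.

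Across the arms, 11 cytosolic genes fell in both: Aars, Cars, Eprs, Farsb, Gars, Lars, Mars, Nars, Tars, Vars and Yars. They are 68.8% of the 16 that fell after knockdown and 91.7% of the 12 that fell with OSMI-1. The same shares over all genes tested in both arms were 32.5% and 42.6%, and 5.64% of these genes fell in both. Farsa, Iars, Kars, Sars and Wars were called after knockdown alone and Dars with OSMI-1 alone, and Hars, Qars and Rars in neither. Of the mitochondrial genes 0 were called in both arms and 10 in neither. For Yars2 this rests on the threshold, since its log2 fold changes were -0.72 after knockdown and -0.76 with OSMI-1. The arms share no libraries, but they differ in agent, duration and depth, which cannot be told apart here.

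A call in 1 arm does not show a difference between arms, so the difference of the 2 log2 fold changes was tested itself, in a limma fit over all 22 libraries and the 11269 genes tested in both arms. It was called for 5 of the 36 members, where 22.9% of all genes were called. Lars fell more after knockdown than with OSMI-1 (difference -0.36 ± 0.11, SE; adjusted p = 0.0205), as did Kars (-0.27 ± 0.09, 0.0279) and Cars (-0.31 ± 0.11, 0.0391). Hars2 (0.57 ± 0.20, 0.0343) and Mars2 (0.49 ± 0.17, 0.0383) stood higher after knockdown. The Lars difference was lost without 1 library, shOgt 1 (adjusted p = 0.0510), and the Kars difference without vehicle 4, OSMI-1 4 or OSMI-1 6. Those of Cars, Hars2 and Mars2 were lost in 11, 10 and 10 of the 22 fits that left out 1 library. For Cars these were shLuc 1 and 3, shOgt 1, 2 and 6, vehicle 3, 4 and 5, and OSMI-1 1, 2 and 4. For Hars2 they were shLuc 1 and 5, shOgt 1, 2 and 6, vehicle 2 and 3, and OSMI-1 2, 5 and 6, and for Mars2 shLuc 1, 2 and 6, shOgt 1, 2 and 5, vehicle 4 and 6, and OSMI-1 4 and 5. Without the libraries that stood apart the Lars and Kars differences were called (0.00887 and 0.0148), those of Cars, Hars2 and Mars2 were not (0.144, 0.137 and 0.109), and that of Farsa was (0.0445; 0.0738 with all libraries). For Tars, which had the lowest p with OSMI-1, the difference was 0.22 ± 0.11 (adjusted p = 0.132), and for Dars 0.20 ± 0.14 (0.343).

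Genes that fell were found in both structural classes, and inside and outside the multi-synthetase complex, a particle that holds 8 of the cytosolic gene products together. Of the 9 class I genes 7 fell after knockdown (median log2 fold change -0.56) and 5 with OSMI-1 (-0.26). Of the 10 class II genes 8 fell after knockdown (-0.31) and 6 with OSMI-1 (-0.25). Eprs, which has active sites of both classes, was left out of this split. Over all tested genes 16.4% fell after knockdown and 13.2% with OSMI-1. Among the complex's enzymes (Eprs, Iars, Lars, Mars, Qars, Rars, Kars and Dars) 5 and 4 of 8 fell, with medians of -0.35 and -0.19, and among the 12 outside it 11 and 8 fell, with medians of -0.38 and -0.28. The 3 scaffold proteins of the complex were not called in either arm. Aimp1 had 507 ± 41.4 against 483 ± 22.9 normalized counts after knockdown, Aimp2 1518 ± 167 against 1282 ± 203 and Eef1e1 661 ± 48.8 against 556 ± 80, with adjusted p from 0.0608 to 0.624. With OSMI-1 they had 238 ± 32.6 against 255 ± 45.1, 462 ± 61.2 against 404 ± 40.8 and 383 ± 32.2 against 387 ± 70.5.

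Lists of the steps next to charging are short, and their counts are set beside all tested genes. Of these 16.4% fell and 15.4% rose after knockdown, and 13.2% fell and 11.6% rose with OSMI-1. Of 5 cytosolic elongation factor genes, Eef1d, which reloads the factor that carries charged tRNA, fell after knockdown (3417 ± 395 to 2762 ± 286), and Eef1g and Eef1b2 of the same exchange complex fell with OSMI-1 (3179.9 ± 192 to 2583 ± 118 and 1733 ± 158 to 1393 ± 119.7). The carrier gene itself, Eef1a1, had 42478 ± 3279 against 44846 ± 3037 after knockdown and 26307 ± 2412 against 23088 ± 2461 with OSMI-1 (adjusted p = 0.345 and 0.0807), and Eef1b2 3044 ± 218 against 3177 ± 258 after knockdown. Of 8 genes for mitochondrial amidation, formylation and elongation, 3 fell and 1 rose after knockdown. Tufm, the mitochondrial carrier of charged tRNA, went from 2187 ± 166 to 1639.8 ± 163, and Gfm1, a translocation factor, from 975 ± 100.2 to 724 ± 118. Gfm2, a ribosome recycling factor, rose from 633 ± 72.6 to 834 ± 56.1. Qrsl1, a subunit of the amidotransferase, also fell (278 ± 46.7 to 197 ± 35.3). With OSMI-1 only Tufm of these 8 was called (924 ± 46 to 801 ± 59.2, adjusted p = 0.0392). Next by p were Gatb, another amidotransferase subunit (149 ± 22.9 to 184 ± 21, 0.0825), and Mtfmt, which formylates the initiator tRNA (71.6 ± 14 to 60.5 ± 17.3, 0.388).

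Of the genes for tRNA maturation, export and proofreading 10 were tested after knockdown, of which 2 fell and 2 rose. Pstk, a kinase on the route to selenocysteinyl-tRNA, rose from 129.5 ± 19.2 to 198 ± 15.9, and the proofreading gene Dtd2 from 407 ± 31.2 to 535 ± 37.4. Its relative Dtd1 fell from 468 ± 25.2 to 363 ± 35.5, and Ptrh2, a peptidyl-tRNA hydrolase, from 493 ± 23.8 to 395 ± 62.1. With OSMI-1 the tRNA exporter gene Xpot was the only one of 11 called (402 ± 21.5 to 337 ± 21.9, adjusted p = 0.0318). Aarsd1 (341 ± 26.4 to 288 ± 35.6, 0.0726) and Prorsd1 (11.2 ± 4.34 to 16.4 ± 2.08, 0.238), which are related to editing domains of synthetases, were next by p.

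Of 22 tested genes of the amino acid response, the programme that ATF4 drives, 13 fell, 2 rose and 7 were not called after knockdown (median log2 fold change -0.45). With OSMI-1 11 fell, 3 rose and 8 were not called (median -0.37). Beside these, 16.4% of all tested genes fell and 15.4% rose after knockdown, and 13.2% fell and 11.6% rose with OSMI-1. Psat1 and Phgdh, enzymes of serine synthesis, went from 5749 ± 397 to 2780.5 ± 174 and from 18017 ± 932 to 11613 ± 1399.7 after knockdown, and Shmt2, which makes glycine in mitochondria, from 5091 ± 571 to 3067 ± 389. With OSMI-1 the folate enzyme Mthfd2 went from 509.6 ± 19.3 to 234 ± 26.2, Psat1 from 3520.2 ± 159.6 to 2009 ± 185 and Asns, the asparagine synthetase, from 1681 ± 191 to 979.6 ± 113. Atf4 itself went from 1310.2 ± 67 to 966 ± 103 after knockdown (-0.44 ± 0.08 on the log2 scale, adjusted p = 0.000296) and from 686 ± 74.3 to 532 ± 70.8 with OSMI-1 (-0.37 ± 0.10, 0.00639). Ddit4 and Cebpg rose after knockdown, and Ddit3, Sesn2 and Slc3a2 with OSMI-1. The part of ATF4 in the synthetase changes was not tested.

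All 6 cell cycle genes examined fell in both arms, with a median log2 fold change of -0.85 after knockdown and -1.36 with OSMI-1, beside those of the cytosolic synthetases (-0.37 and -0.25). Plk1, a mitotic kinase, went from 2974 ± 167 to 1661 ± 158 after knockdown and from 1152 ± 95.8 to 371 ± 32.3 with OSMI-1. Aurkb, another mitotic kinase, went from 1982 ± 171 to 939 ± 153 and from 762 ± 58.4 to 302 ± 9.48, and the cyclin gene Ccnb1 from 4372 ± 307 to 2568 ± 266 and from 2136 ± 103 to 709.6 ± 55. Of all genes tested in both arms 5.64% fell in both. The part of fewer dividing cells in the synthetase levels was not tested.

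**Figure D5:**
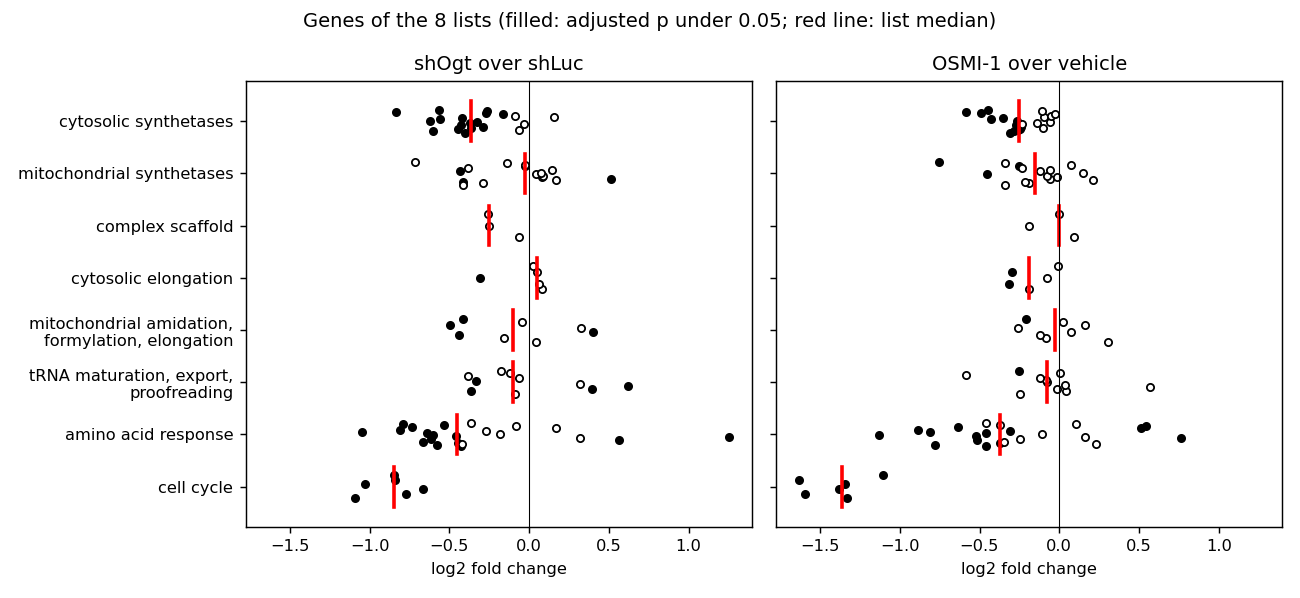
Log2 fold change of each tested gene in 8 lists (points; filled at an adjusted p under 0.05; red line is the list's median) after knockdown (left) and with OSMI-1 (right). The medians of the cytosolic synthetases (-0.37 and -0.25) and of the amino acid response (-0.45 and -0.37) lie left of 0 in both panels, those of the mitochondrial synthetases at -0.03 and -0.16, and those of the cell cycle genes at -0.85 and -1.36.

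Cytosolic genes with and without the promoter motif fell. Aars, Gars, Iars, Tars and Yars, which hold it, fell after knockdown and, except Iars, with OSMI-1. Of the 8 other cytosolic genes with a promoter in the table, Eprs, Farsa, Farsb, Kars, Mars and Sars fell after knockdown too, and Dars and Qars did not. With OSMI-1 Dars, Eprs, Farsb and Mars of these fell, and Farsa, Kars, Qars and Sars were not called. Over all tested genes with a promoter in the table, 18.9% of 233 with the motif and 16.5% of 9071 without it fell after knockdown, and 18.1% of 216 and 12.8% of 8512 with OSMI-1. The 3′ UTR sequence AACATGC, known from an earlier account of these data to be frequent among genes that fell after knockdown, occurred in 0 of the 36 members. In that arm 28.3% of the 1159 tested genes with it and 15.6% of the 10189 without it fell. This contrast repeats the earlier account of the same data and is no separate support for it. With OSMI-1 10.9% of the 1117 genes with it and 13.6% of the 9578 without it fell. The 16 cytosolic genes that fell after knockdown are among the genes without it.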

How the data were processed

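RNA was sequenced in 22 libraries, 11 per arm, grouped by the sample labels. Per the submitters' processing notes, STAR, RSEM and DESeq2 were used, and the build named is human (hg38) although the tables carry mouse symbols. The labels describe strand-specific poly(A) libraries and the design text Smart-Seq2, which was not settled here. The authors deposited 1 table per arm with normalized counts (a signal, counts divided by a size factor), their log2 fold change, a Wald statistic (a score) and p-values. Direction was checked on the library values, since 1 deposited fold change is vehicle over OSMI-1. Within each library the deposited values are integer multiples of a single step (100% of them, tolerance 0.001), which gave back the reads. No 2 libraries agreed within sampling noise (smallest chi-square per degree of freedom 5.86 and 3.74).

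The test was limma 3.58.1 (R 4.3.3) with the variance trend by intensity, applied to log2(normalized count + 1) per arm and without covariates. Low genes were removed with filterByExpr of edgeR 4.0.16 (minimum count 10, minimum total 15). The minimum count did not have to be met in every library. P-values were two-sided, adjusted by Benjamini and Hochberg over all tested genes and called at 0.05; fold changes on this scale understate changes of low genes. Alternatives were pseudocounts of 0.5 and 5, no filter, TMM scaling, scaling to the total without Rn45s, edgeR's quasi-likelihood test, DESeq2 1.42.0, the authors' deposited table, a replicate block, leaving out libraries that stood apart, and leaving out each library. Leaving out libraries for the difference between arms was chosen after seeing the data. The fits were tested on simulated data.

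The members and lists were chosen with earlier results of these data known. All members are named with their means. Values per library are given for the 4 cytosolic and 3 mitochondrial members with the smallest adjusted p per arm, and of other lists the 3 genes with the smallest adjusted p per arm are named; Qrsl1, Ptrh2, Atf4 and the risers of the amino acid response were added after their values were seen. Levels per kb divide by the GENCODE transcript length (GRCm38). The 13 pairs of cytosolic and mitochondrial counterparts share no 31-base stretch in transcript orientation. Opposite strands were not compared. Hars and Hars2 overlap on opposite strands, so whether reads from their overlap can be told apart was not tested. A further promoter match is not reported here.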

Additional observations from a re-analysis of the deposited data

Results flagged for a closer look

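In 9 of 144 groups of libraries (36 genes in 4 groups) 1 library lay far from the nearest other by Dixon's test, and chance alone gives about 1 in 20 groups. In the knockdown arm these were Gars in shLuc 3 (4393 normalized counts, low), Kars in shLuc 1 (5004, high), Tars2 in shLuc 1 (1409.8, high), Cars2 in shOgt 5 (269, low) and Pars2 in shOgt 2 (277, high). In the inhibitor arm they were Aars2 in vehicle 3 (169.7, high), Mars2 in vehicle 6 (188, high), Rars2 in vehicle 6 (413, high) and Nars2 in OSMI-1 2 (258, high). The shLuc 1 and shLuc 3 libraries also stood apart on principal components. Leaving out shOgt 2 kept the Pars2 call, and leaving out vehicle 6 kept the Mars2 call.

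The change differed between the arms (knockdown minus OSMI-1, log2, limma over both arms) for Cars (-0.31), Kars (-0.27), Lars (-0.36), Hars2 (0.57) and Mars2 (0.49). Without the libraries that stood apart, Cars, Hars2 and Mars2 were no longer called (adjusted p = 0.144, 0.137 and 0.109).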

How the results depend on the processing

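No called member changed direction under any alternative run, and 15 of the 16 cytosolic calls after knockdown and 9 of the 12 with OSMI-1 were kept in all of them. The exceptions were Sars after knockdown and Eprs, Farsb and Lars with OSMI-1. Of the 3 mitochondrial calls in each arm, 2 after knockdown and 0 with OSMI-1 were kept in all of them. Without the libraries that stood apart, 4 mitochondrial genes fell after knockdown, 0 with OSMI-1, and 3 members differed between the arms (Kars, Lars and Farsa, of which Farsa was not among the 5 with all libraries); the cause was not tested. No label says what a replicate number stands for. Correlations of same-numbered libraries ran from -0.01 to 0.16 after knockdown and from -0.10 to 0.05 with OSMI-1. Of the treated libraries 1 of 5 and 0 of 5 correlated best with their own number. Of the control libraries shLuc 3, shLuc 6 and vehicle 6 did. Number 3 of the knockdown arm thus matched in both directions. Such correlations cannot settle whether the numbers pair the libraries. With the replicate block, 15 and 12 cytosolic genes fell, and 2 and 1 mitochondrial genes. Leaving out each library gave 15 to 16 cytosolic genes lower after knockdown (median -0.39 to -0.33), 1 to 3 mitochondrial genes lower and 1 higher (median -0.09 to 0.01), and 3208 to 3897 genes called in all. With OSMI-1 it gave 9 to 12 (median -0.28 to -0.23), 1 to 3 and 0 (median -0.20 to -0.11), and 2428 to 2680; 2 to 6 members differed between the arms. Yars2 had the lowest means among the called members, 46.7 and 29.0 normalized counts in the inhibitor arm.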
